A study of Mus musculus with 20 samples.

Results

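Livers of mice on a methionine and choline deficient (MCD) diet that had received an antibody against acyl-CoA binding protein (anti-ACBP) were set against livers of mice on regular chow that had received IgG. The comparison covered 10 of the 20 labelled samples, 5 in each group, and was chosen by diet and antibody. It describes what remained apart from the healthy state after the antibody. All mice were C57BL/6, and the 4 groups, with 5 labelled samples each, were MCD with anti-ACBP, MCD with IgG, chow with anti-ACBP and chow with IgG. The labels call the MCD groups NASH and the chow groups healthy, and no group was free of injected antibody, because the chow controls received IgG. Bulk liver mRNA was sequenced with strand-specific libraries, so fewer cells of a type and less RNA per cell cannot be told apart. Sex, age, time on diet, antibody dose and batch were not given in the sources used here.

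ACBP, the product of the Dbi gene, carries long-chain acyl-CoA esters inside cells and is also released as an extracellular peptide, which the antibody neutralizes. The MCD diet removes the methyl donors and the choline that hepatocytes need to make phosphatidylcholine and to export fat in lipoproteins. Mouse livers on it accumulate triglyceride, recruit macrophages and deposit collagen, which makes it a common model of non-alcoholic steatohepatitis, although the animals also lose weight and do not become insulin resistant in the way patients do. Growth hormone pulses, acting through STAT5b, keep a large set of sex-biased liver genes at their male or female level, and illness or poor nutrition weakens that pattern. Hepatocytes also secrete the acute phase and complement proteins of plasma.

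The values were the authors' group means of normalized counts. Single-read steps in the tables showed that 5 libraries stood behind each MCD mean and 4 behind each chow mean, although 5 chow samples per group are labelled. The tables of the 2 diets were normalized separately by the authors, and each value is a mean over a group, so levels were compared across diets without a test. For 9098 genes the overall mean of both tables reached 5 CPM (normalized counts per 1000000 of a column total), and the median of their log2 ratios of MCD anti-ACBP to chow IgG was subtracted from each ratio. That median was 0.32 before centring, so a centred value between -0.32 and 0 changes sign when the deposited scaling is left as it stands. Column totals were 39398190 normalized counts in MCD anti-ACBP, 34621779 in MCD IgG, 35093280 in chow anti-ACBP and 38600264 in chow IgG. Hepatocyte genes dominated all groups, and 14 of 14 hepatocyte markers passed the filter on low values.

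Most genes of the MCD anti-ACBP livers stood close to chow IgG. The median size of the centred log2 ratio was 0.18, a 1.13-fold difference, and 87.25% of the 9098 genes lay within 0.5 of it. A total of 258 genes (2.84%) were at least 2-fold apart, of which 116 were higher in MCD anti-ACBP (1.28%) and 142 lower (1.56%). MCD IgG livers, set against the same chow IgG libraries in the same way, had 806 such genes (8.86%), 407 higher (4.47%) and 399 lower (4.39%), with 71.73% of genes within 0.5. These shares over all genes are the background for the list counts against chow IgG below. Between MCD anti-ACBP and MCD IgG 338 genes (3.72%) were 2-fold apart, 1.91% higher and 1.8% lower. The split between higher and lower genes depended on the scaling: relative to column totals, 273 genes were higher and 83 lower, because that scaling moves all ratios of MCD anti-ACBP to chow IgG up by 0.29. As a rough guide to library spread, 241 of the 258 differed by more than 2 times the root of the summed squared standard errors (SEs) that the authors' deposited tables give for the antibody effect on the 2 diets. Those SEs also hold the spread of MCD IgG and chow anti-ACBP, which are not in this ratio. They hold nothing of the separate normalization of the diets, so the guide is not a test of the ratio. The genes nearest the threshold were Abcc9 at 1.0035 and Serpina7 at 1.0041 inside it and Per3 at 0.9935 and Tmem184b at 0.9932 outside it, and on the lower side mt-Nd5 at -1.012 and Slc45a3 at -1.0094 inside and Ces3b at -0.9985 and Bbc3 at -0.9977 outside.

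The count of genes 2-fold apart varied with expression level. In the quintile of genes with the highest chow level 23 were higher in MCD anti-ACBP and 70 lower (5.11% together), and in the lowest quintile 38 were higher and 6 lower (2.418%). The quintiles were cut on the overall chow mean, which holds the chow IgG denominator of the ratio. The filter also asks for 5 CPM on MCD, which few low genes can meet when 2-fold lower. Both tilt the split between higher and lower genes, so no conclusion is drawn from it. The major urinary protein (Mup) genes, which encode pheromone carriers of male urine, took 1.94% of all normalized counts in MCD anti-ACBP livers, 0.552% in MCD IgG, 5.17% in chow anti-ACBP and 10.1% in chow IgG. Leaving out the Mup genes left 243 of 9082 genes 2-fold apart. Skeletal muscle genes were higher in the chow IgG mean than in the other means. The 5 listed muscle genes summed to 1.18 CPM in MCD anti-ACBP, 1.64 in MCD IgG, 1.55 in chow anti-ACBP and 28.8 in chow IgG. Among them Myh4, a fast myosin heavy chain, was listed at 0 normalized counts in MCD anti-ACBP, 1.14 in MCD IgG, 0 in chow anti-ACBP and 413 in chow IgG. The authors' deposited table gives Myh4 an SE of 3.38 on the log2 scale on chow and lists its adjusted p as 1. Whether a single library carried these reads was not tested.

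**Figure D1:**
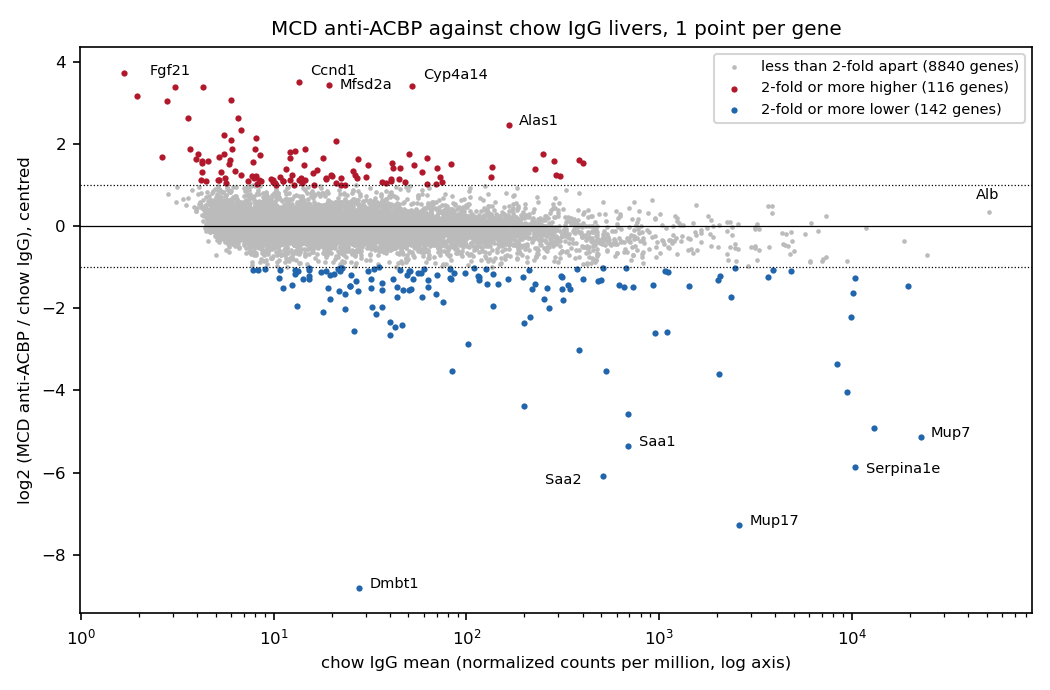
Centred log2 ratio of MCD anti-ACBP to chow IgG (vertical axis) against the chow IgG mean in CPM (horizontal, log axis), 1 point for each of 9098 genes; dotted lines mark 2-fold. Most points lie between the lines, 116 lie above and 142 below, and Mup7, Serpina1e, Saa1 and Saa2 are abundant in chow IgG and far below the lines.

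Dbi itself stood near its healthy level. Its means were 23709 normalized counts in MCD anti-ACBP, 13686 in MCD IgG, 24526 in chow anti-ACBP and 24311 in chow IgG. The centred log2 ratio to chow IgG was -0.35 for MCD anti-ACBP and -1.07 for MCD IgG, and with the deposited scaling left as it stands the MCD anti-ACBP and chow IgG means differed by less than the centring. The authors' deposited table gives an increase with the antibody on MCD of 0.79 ± 0.0965 (log2, SE), which passed the test at an adjusted p under 0.05. None of the 6 genes that encode acyl-CoA binding domains was 2-fold from chow IgG in MCD anti-ACBP livers (all genes: 2.84%). They ranged from -0.67 for Acbd4 to 0.46 for the Golgi protein gene Acbd3, and Eci2, an enoyl-CoA isomerase with such a domain, was at 0.18.

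The 12 genes highest above chow IgG, leaving out predicted genes, included a cell cycle regulator, a lipid transporter and enzymes of fatty acid handling. Ccnd1, which encodes cyclin D1 and drives entry into the cell cycle, had 7479 normalized counts in MCD anti-ACBP, 17377 in MCD IgG, 1187 in chow anti-ACBP and 524 in chow IgG. Its centred ratio of MCD anti-ACBP to chow IgG was 3.52 on the log2 scale, or 11.4-fold. In the authors' deposited table it fell by 1.22 ± 0.218 with the antibody on MCD (log2, SE), which passed the test. Ccnd1 therefore stood between MCD IgG and chow IgG in MCD anti-ACBP livers, and both MCD groups lay above both chow groups.

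Mfsd2a, a transporter of lysophosphatidylcholine, had 10087 normalized counts in MCD anti-ACBP, 9388 in MCD IgG, 3641 in chow anti-ACBP and 747 in chow IgG, a centred ratio of 3.44 to chow IgG. The authors' deposited table gives a log2 change with the antibody on MCD of 0.10 ± 0.221 (SE, adjusted p = 0.776) and on chow an increase of 2.28 ± 0.378, which passed the test. Both MCD groups stood at about the same level, and the 2 chow groups lay apart. Alas1, the rate-limiting enzyme of haem synthesis, had 44134 normalized counts in MCD anti-ACBP, 26275 in MCD IgG, 27714 in chow anti-ACBP and 6407 in chow IgG. Its centred ratio of MCD anti-ACBP to chow IgG was 2.47, and that of MCD IgG to chow IgG was 1.80. In the authors' deposited table Alas1 rose with the antibody by 0.75 ± 0.177 on MCD and by 2.11 ± 0.565 on chow (adjusted p = 0.00362 on chow).

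Fgf21, a hormone that the liver secretes in fasting and amino acid shortage, had 1545 normalized counts in MCD anti-ACBP, 2653 in MCD IgG, 297 in chow anti-ACBP and 119 in chow IgG. It was 10.4-fold above chow IgG in MCD anti-ACBP livers, and the authors' deposited table gives a log2 change with the antibody of -0.78 ± 0.439 on MCD that did not pass the test (adjusted p = 0.177). Slc16a5, a monocarboxylate transporter, had 1104 normalized counts in MCD anti-ACBP, 4238 in MCD IgG, 329 in chow anti-ACBP and 108 in chow IgG, and it fell by 1.94 ± 0.436 with the antibody on MCD in the authors' deposited table. Lepr, the leptin receptor, had 847 in MCD anti-ACBP, 573 in MCD IgG, 378 in chow anti-ACBP and 75.8 in chow IgG. These 3 genes were all lowest in chow IgG, and the MCD IgG mean was above the MCD anti-ACBP mean for Fgf21 and Slc16a5 but not for Lepr.

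The other genes among the 12 highest were Cyp4a14, Acot3 and Cyp4a31, described with the PPARα targets, and Fmo2, a flavin monooxygenase (2.64), Abcd2, a peroxisomal fatty acid transporter (2.64), and Prss8, a membrane serine protease (2.21). For none of these last 3 did the antibody's effect on MCD pass the test in the authors' deposited table, where the adjusted p-values were 0.744, 0.178 and 0.836 for Fmo2, Abcd2 and Prss8. These genes were chosen for being high in MCD anti-ACBP and low in chow IgG, so the comparisons with either group share libraries with the choice.

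**Figure D2:**
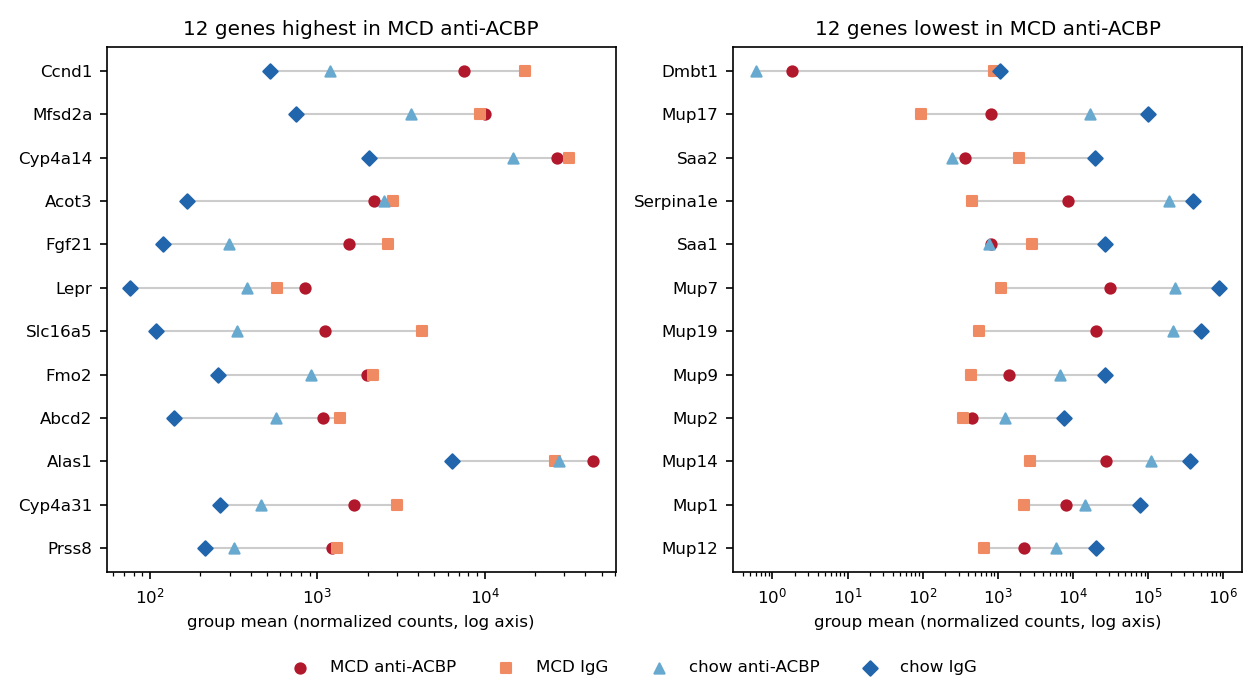
Group means in normalized counts (log axis) of the 12 genes with the highest (left) and the 12 with the lowest (right) centred ratio of MCD anti-ACBP to chow IgG; each symbol is the authors' mean of 1 group and no error is drawn. Chow IgG is at the low end on the left and at the high end on the right, and Mup7, at 31204 normalized counts in MCD anti-ACBP, lies between MCD IgG (1114) and chow IgG (874356).

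Target genes of PPARα, the nuclear receptor for fatty acids, were partly above the healthy level. Of 22 listed PPARα targets 20 passed the filter. Of these 7 were at least 2-fold higher and 0 lower in MCD anti-ACBP than in chow IgG (all genes: 1.28% higher and 1.56% lower), with a list median of 0.31. In MCD IgG against chow IgG 8 were higher and 1 lower (all genes: 4.47% higher and 4.39% lower), with a median of 0.42. Cyp4a14, an omega-hydroxylase of fatty acids, had 26941 normalized counts in MCD anti-ACBP, 31747 in MCD IgG, 14774 in chow anti-ACBP and 2025 in chow IgG (centred ratio of MCD anti-ACBP to chow IgG, 3.42). Acot3, a peroxisomal acyl-CoA thioesterase, had 2177 in MCD anti-ACBP, 2839 in MCD IgG, 2506 in chow anti-ACBP and 167 in chow IgG. Both genes were low in chow IgG only, and Acot3 in MCD anti-ACBP was below its level in chow anti-ACBP (-0.50). Cyp4a31 had 1651 in MCD anti-ACBP, 3000.5 in MCD IgG, 461 in chow anti-ACBP and 260.3 in chow IgG. Against chow anti-ACBP livers 2 of the 20 targets were 2-fold higher and 0 lower in MCD anti-ACBP (all genes: 0.923% higher and 0.616% lower).

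Mitochondrial β-oxidation and ketogenesis genes stood about as near chow IgG as all genes did. Of 20 genes 0 were 2-fold apart and 18 lay within 0.5 (all genes: 2.84% and 87.25%). Bdh1, the β-hydroxybutyrate dehydrogenase, and Cpt1a, the carnitine transferase that admits fatty acids to mitochondria, were both at 0.72. Fatty acid and triglyceride synthesis was mixed: of 20 genes above the filter, out of 22, 2 were higher and 1 lower in MCD anti-ACBP than in chow IgG, and 14 lay within 0.5. Scd1, the stearoyl-CoA desaturase, had 89045 normalized counts in MCD anti-ACBP, 12779 in MCD IgG, 218951 in chow anti-ACBP and 149847 in chow IgG, a centred ratio of MCD anti-ACBP to chow IgG of -1.07. That size was within 2 times the combined deposited SEs (1.07). The polyunsaturated fatty acid desaturase gene Fads2 was higher at 1.597, and the pyruvate kinase gene Pklr at 1.21. In MCD IgG 1 gene of this list was 2-fold higher and 7 lower than in chow IgG (all genes: 4.47% higher and 4.39% lower).

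Of 24 sterol genes 2 were higher in MCD anti-ACBP than in chow IgG and 0 lower (all genes: 1.28% higher and 1.56% lower). The list median was 0.28. Of 13 lipid droplet genes above the filter, out of 16, 1 was lower (Fitm1, a droplet-forming membrane protein, at -1.47) and the lipase gene Pnpla2 was at 0.68. Of 17 apolipoprotein and lipoprotein assembly genes 1 was 2-fold higher, Apoa4. Apoa4 had 40498 normalized counts in MCD anti-ACBP, 120285 in MCD IgG, 8028 in chow anti-ACBP and 9580 in chow IgG, and it fell by 1.57 ± 0.223 with the antibody on MCD in the authors' deposited table. It therefore stood at 1.76 above chow IgG in MCD anti-ACBP and at 3.41 in MCD IgG.

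Male-biased liver genes had the lowest median ratio to chow IgG among the gene lists with members above the filter. Of 16 listed genes, all above the filter, 14 were at least 2-fold lower in MCD anti-ACBP and 0 higher (all genes: 1.56% lower and 1.28% higher). The median was -2.01, against a median of 0 over all 9098 genes by construction. In MCD IgG 16 of 16 were lower than in chow IgG (all genes: 4.39%), with a median of -4.49. The authors' deposited table gives an increase with the antibody on MCD for 15 of the 16, where 24.9% of all 9098 genes rose and 12.8% fell. Serpina1e, an α1-antitrypsin paralog of mice, had 8534 normalized counts in MCD anti-ACBP, 449 in MCD IgG, 189359 in chow anti-ACBP and 399981 in chow IgG. Its centred ratio of MCD anti-ACBP to chow IgG was -5.87, which left it 58.4-fold below, and the antibody raised it on MCD by 4.25 ± 0.300 in the authors' deposited table. Cyp4a12a, a male-specific arachidonate hydroxylase, had 2283 normalized counts in MCD anti-ACBP, 521 in MCD IgG, 11011 in chow anti-ACBP and 14785 in chow IgG, and its relative Cyp4a12b had 351 in MCD anti-ACBP, 270.3 in MCD IgG, 2874 in chow anti-ACBP and 3240.4 in chow IgG. For these 2 enzymes the MCD groups did not reach either chow group.

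The Mup genes, many of them male-biased, were far below chow IgG in both MCD groups. Of 22 Mup genes 16 passed the filter, and 15 of these were 2-fold lower in MCD anti-ACBP than in chow IgG (all genes: 1.56%). Their median was -3.44 and their range from -7.27 to -0.54. Mup7 had 31204 normalized counts in MCD anti-ACBP, 1114 in MCD IgG, 227539 in chow anti-ACBP and 874356 in chow IgG. Mup19 had 20529.7 in MCD anti-ACBP, 564 in MCD IgG, 212558 in chow anti-ACBP and 499371 in chow IgG. Mup17 was the lowest of the family relative to chow IgG (-7.27), with 809.9 normalized counts in MCD anti-ACBP, 95.2 in MCD IgG, 16741 in chow anti-ACBP and 100186 in chow IgG. The 12 lowest genes of the whole comparison also held Mup9 (-4.56), Mup2 (-4.39), Mup14 (-4.03), Mup1 (-3.61) and Mup12 (-3.53). The Mup genes are near-identical copies, so how reads were shared among them is uncertain. The chow groups differed too: in the authors' deposited table Mup7 fell with the antibody on chow by 1.94 ± 0.496 (adjusted p = 0.00205) and Mup14 by 1.75 ± 0.428 (adjusted p = 0.00114).

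Female-biased genes were highest in MCD IgG, and their sum in MCD anti-ACBP lay between MCD IgG and both chow groups. None of 13 passed the filter in both tables. Their summed level was 38.6 CPM in MCD anti-ACBP, 575 in MCD IgG, 5.24 in chow anti-ACBP and 0.772 in chow IgG. Cyp2b9, a female-specific P450, had 866 normalized counts in MCD anti-ACBP, 5213 in MCD IgG, 5.19 in chow anti-ACBP and 0.82 in chow IgG. The authors' deposited table gives a fall with the antibody on MCD of 2.59 ± 0.289 for Cyp2b9. Cyp2b9 thus stood in MCD anti-ACBP livers below MCD IgG and above both chow groups.

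In the growth hormone axis 4 of 13 genes were higher and 1 lower in MCD anti-ACBP than in chow IgG (all genes: 1.28% higher and 1.56% lower). The STAT5 target genes Socs2 and Cish, both feedback inhibitors of cytokine signalling, were at 1.81 and 1.66. Cish had 2737 normalized counts in MCD anti-ACBP, 1457 in MCD IgG, 995 in chow anti-ACBP and 694 in chow IgG, and its ratio was within 2 times the combined deposited SEs (2.03). Igfbp2, a binding protein of insulin-like growth factors, was at 1.59. Bcl6, a repressor of female-biased genes in male mouse liver, had 1006 normalized counts in MCD anti-ACBP, 304 in MCD IgG, 1488 in chow anti-ACBP and 2914 in chow IgG (-1.85). The authors' deposited table gives a rise of Bcl6 with the antibody on MCD of 1.73 ± 0.258. The fourth higher gene was Igfbp1 (1.42, within the guide of 1.52), named after its value was seen, at 5870.1 normalized counts in MCD anti-ACBP, 16494 in MCD IgG, 1568 in chow anti-ACBP and 1755 in chow IgG.

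**Figure D3:**
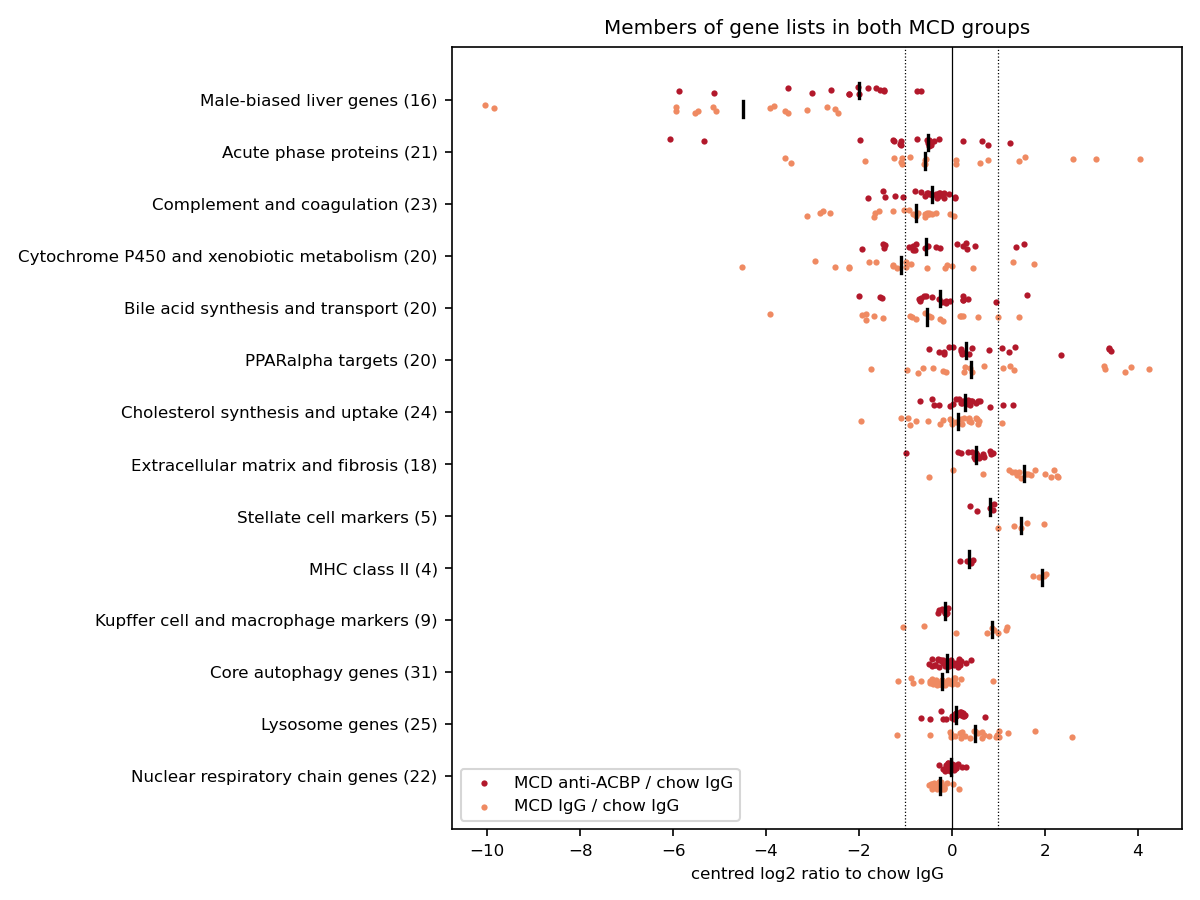
Centred log2 ratio to chow IgG of each gene above the filter in 14 lists (members shown in brackets), for MCD anti-ACBP (dark red, upper) and MCD IgG (orange, lower); black ticks are list medians and dotted lines mark 2-fold. Male-biased genes have a median of -2.01 in MCD anti-ACBP and -4.49 in MCD IgG, extracellular matrix genes 0.53 and 1.54, and both ratios share the chow IgG libraries.

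The acute phase genes Saa1 and Saa2 were among the 5 lowest genes, and they separated chow IgG from the 3 other groups. Serum amyloid A proteins are secreted by hepatocytes in inflammation and replace apolipoprotein A-I on high density lipoprotein. Saa1 and Saa2 lie next to each other on chromosome 7 in opposite directions, and the 250 bases before each start site are 94.82% identical (238 of 251 aligned columns). These bases lie before the start sites, so their likeness does not bear on reads of the transcripts. Their part in the levels of the 2 genes was not tested. Whether reads were shared between Saa1 and Saa2 was not tested either, so their separate counts are uncertain. The sequences, from RefSeq on GRCm38.p6, are written 5′ to 3′ on the strand of each gene, and capitals mark their longest shared run of 65 bases (Saa1 at chr7:46742981-46743230, minus strand; Saa2 at chr7:46751583-46751832, plus strand).
Saa1: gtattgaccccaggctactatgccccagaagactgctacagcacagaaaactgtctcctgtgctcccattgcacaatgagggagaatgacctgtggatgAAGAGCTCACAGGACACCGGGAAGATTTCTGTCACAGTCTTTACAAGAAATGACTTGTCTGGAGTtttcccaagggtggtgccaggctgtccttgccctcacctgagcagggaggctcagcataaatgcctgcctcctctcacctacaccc
Saa2: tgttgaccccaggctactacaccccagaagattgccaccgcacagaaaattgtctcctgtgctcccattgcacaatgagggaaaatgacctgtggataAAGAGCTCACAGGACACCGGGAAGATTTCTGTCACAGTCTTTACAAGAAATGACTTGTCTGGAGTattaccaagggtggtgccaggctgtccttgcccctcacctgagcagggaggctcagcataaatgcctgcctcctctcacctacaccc

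Saa1 had 816 normalized counts in MCD anti-ACBP, 2854 in MCD IgG, 755 in chow anti-ACBP and 26601 in chow IgG, and Saa2 had 364 in MCD anti-ACBP, 1921 in MCD IgG, 248 in chow anti-ACBP and 19696 in chow IgG. The centred ratios of MCD anti-ACBP to chow IgG were -5.35 for Saa1 and -6.08 for Saa2. Against chow anti-ACBP they were -0.18 and 0.26, so both genes were near the level of the other chow group. The authors' deposited table gives a fall with the antibody on MCD of 1.81 ± 0.419 for Saa1 and of 2.40 ± 0.405 for Saa2, and on chow both reached the end of the fold change column at -5 and passed the test, with SEs of 0.475 for Saa1 and 0.717 for Saa2. The chow IgG means rest on 4 libraries, and levels in single libraries were not used here.

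Of 22 listed acute phase genes 21 passed the filter, with a median of -0.52. Of these 8 were 2-fold lower and 1 higher in MCD anti-ACBP than in chow IgG (all genes: 1.56% lower and 1.28% higher). Against chow anti-ACBP 0 were lower and 5 higher, so the call of this group depended on which chow group served as the reference. It depended on the scaling too: against chow IgG 3 were lower and 2 higher by column totals, with a median of -0.23. Orm2, an α1-acid glycoprotein, had 400 normalized counts in MCD anti-ACBP, 2538 in MCD IgG, 153 in chow anti-ACBP and 1254 in chow IgG. Lcn2, an iron-sequestering lipocalin, had 213 in MCD anti-ACBP, 8024 in MCD IgG, 57.8 in chow anti-ACBP and 410.4 in chow IgG. For both genes MCD anti-ACBP lay above chow anti-ACBP and below chow IgG. The higher gene was Hamp, which encodes the iron hormone hepcidin, at 1.25.

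Of 23 complement and coagulation genes 5 were 2-fold lower in MCD anti-ACBP and 0 higher (all genes: 1.56% lower and 1.28% higher), with a median of -0.44. In MCD IgG 9 were lower (all genes: 4.39%), with a median of -0.77. The 4 of the 23 farthest below were C6 (-1.80), C9 (-1.49) and C8a (-1.43), all parts of the membrane attack complex, and C4b (-1.22), an early component. C4a, which is not on the list and was named after its value was seen, was lower still at -2.88. C6 had 4380.0 normalized counts in MCD anti-ACBP, 1655 in MCD IgG, 7710.2 in chow anti-ACBP and 12213 in chow IgG, so that both MCD groups lay below both chow groups. Against chow anti-ACBP only C6 of the 23 was 2-fold lower and the median was -0.16, with C8b, also of the membrane attack complex, at 8706 normalized counts in MCD anti-ACBP and 8627 in chow anti-ACBP. By column totals 3 of the 23 were lower than in chow IgG. With the antibody on MCD 18 of the 23 rose and 0 fell in the authors' deposited table, where 24.9% of all genes rose and 12.8% fell.

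Iron and haem genes were partly higher than in chow IgG: of 14 above the filter, out of 16, 3 were 2-fold higher (Alas1, Hamp2 and Hamp) and 0 lower. Over all genes 1.28% were higher and 1.56% lower. Against chow anti-ACBP 1 of the 14 was 2-fold higher, Hamp at 1.07, with Hamp2 at 0.75 and Alas1 at 0.38, and 0 were lower. Hamp had 33281 normalized counts in MCD anti-ACBP, 39191 in MCD IgG, 12916 in chow anti-ACBP and 11231 in chow IgG, and its paralog Hamp2 had 1371 in MCD anti-ACBP, 2965 in MCD IgG, 665 in chow anti-ACBP and 329.9 in chow IgG. Tfr2, the iron sensor transferrin receptor 2, was at -0.76. Of 7 red blood cell genes 5 passed the filter, with a median of -0.82 in MCD anti-ACBP and -1.50 in MCD IgG against chow IgG. In MCD anti-ACBP 1 of the 5 was 2-fold lower, the globin gene Hbb-bt, within 2 times the combined deposited SEs, and by column totals 0 were. Their part in the haem result was not tested.

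Cytochrome P450 and other xenobiotic enzymes were shifted in both directions. Of 20 genes above the filter, out of 23, 2 were higher and 4 lower in MCD anti-ACBP than in chow IgG (all genes: 1.28% higher and 1.56% lower). In MCD IgG 2 were higher and 10 lower (all genes: 4.47% higher and 4.39% lower). Cyp2c54, an arachidonate epoxygenase of mice, had 1732 normalized counts in MCD anti-ACBP, 276.1 in MCD IgG, 5622 in chow anti-ACBP and 5325 in chow IgG. Cyp2c29 (-1.49) and the male-biased enzyme gene Cyp2d9 (-1.46) were also lower. Cyp2a5, which clears nicotine and coumarin, had 56321 in MCD anti-ACBP, 61999 in MCD IgG, 44219 in chow anti-ACBP and 15494 in chow IgG, so it was low in chow IgG only. For Cyp2c54 both MCD groups lay below both chow groups, and the antibody raised it on MCD by 2.65 ± 0.489 in the authors' deposited table.

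In bile acid synthesis and transport 1 of 20 genes was higher and 3 were lower, of 21 listed (all genes: 1.28% higher and 1.56% lower). Cyp7b1, the male-biased oxysterol hydroxylase of the acidic pathway, had 3207 normalized counts in MCD anti-ACBP, 812 in MCD IgG, 4701 in chow anti-ACBP and 10317 in chow IgG (-2.004). Cyp8b1, the hydroxylase that makes cholic acid, had 4476 in MCD anti-ACBP, 3341 in MCD IgG, 3113 in chow anti-ACBP and 10137 in chow IgG (-1.50). Nr0b2, the repressor SHP, was at -1.55, a size within 2 times the combined deposited SEs (1.6033), and Cyp39a1, an oxysterol hydroxylase, was at 1.62. Against chow anti-ACBP 0 genes of this list were 2-fold higher and 0 lower, with Cyp7b1 at -0.85, Nr0b2 at -0.36, Cyp39a1 at 0.81 and Cyp8b1 at 0.23.

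Methionine and one-carbon genes, whose substrate the diet removes, differed from chow IgG at single genes. Of 20 genes 1 was higher and 2 lower in MCD anti-ACBP, where 2.84% of all genes were 2-fold apart, and 12 of 20 lay within 0.5, where 87.25% of all genes did. With no centring 1 was higher and 0 lower. Bhmt, which remakes methionine from homocysteine with betaine, had 39261 normalized counts in MCD anti-ACBP, 184863 in MCD IgG, 20881 in chow anti-ACBP and 77954 in chow IgG. The centred ratio to chow IgG was -1.31 for MCD anti-ACBP and 1.01 for MCD IgG, and Bhmt fell with the antibody by 2.24 ± 0.296 on MCD and by 1.90 ± 0.457 on chow in the authors' deposited table. Mat2a, the S-adenosylmethionine synthetase of growing cells, had 7972 in MCD anti-ACBP, 10234 in MCD IgG, 3291 in chow anti-ACBP and 2810.1 in chow IgG, and both MCD groups lay above both chow groups. Csad, which makes the taurine precursor, was lower at -1.28. Among 14 choline and phospholipid genes only the choline kinase gene Chka was 2-fold apart (-1.40), and it was at 0.07 against chow anti-ACBP.

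Of 18 glucose and glycogen genes above the filter, out of 20, 2 were lower in MCD anti-ACBP than in chow IgG and 0 higher (all genes: 1.56% lower and 1.28% higher). They were Ppp1r3c (-1.73) and Ppp1r3b (-1.41), which target protein phosphatase 1 to glycogen, and Gys2, the liver glycogen synthase, was at 0.92. None of 23 urea cycle and amino acid genes was 2-fold apart, with Hal, the histidine ammonia-lyase, lowest at -0.78. None of 11 pericentral and none of 10 periportal hepatocyte genes above the filter was 2-fold apart either. Only 2.84% of all genes were 2-fold apart, so a count of 0 in lists this short is not a result about them. Of 16 hepatocyte transcription factors 1 was higher, Onecut1 (1.66, within the guide of 1.68), and 15 lay within 0.5. Adipocyte (2 of 7 above the filter), cholangiocyte (1 of 10) and pancreatic acinar markers (1 of 7) had 0 genes 2-fold apart. The Y-linked genes Kdm5d, Uty, Eif2s3y and Ddx3y passed the filter, and 0 of them were 2-fold apart.

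Matrix genes stood between the levels of MCD IgG and chow IgG. Of 35 listed matrix and fibrosis genes 18 passed the filter, and 0 of these were 2-fold apart in MCD anti-ACBP (all genes: 2.84%). In MCD IgG 15 were higher than in chow IgG (all genes: 4.47%). The medians were 0.53 in MCD anti-ACBP and 1.54 in MCD IgG. The 0 depended on the scaling and the reference: 3 of the 18 were 2-fold higher in MCD anti-ACBP by column totals, 4 with no centring and 4 against chow anti-ACBP. With the antibody on MCD 15 of the 18 fell and 1 rose in the authors' deposited table, where 12.8% of all genes fell and 24.9% rose. Decorin (Dcn), a collagen-binding proteoglycan, had 5171 normalized counts in MCD anti-ACBP, 9204 in MCD IgG, 2866 in chow anti-ACBP and 2258 in chow IgG, a centred ratio of 0.88 to chow IgG. Lumican (Lum) was at 0.85, the metalloprotease inhibitor gene Timp3 at 0.81 and the basement membrane gene Col15a1 at -0.98. The other 17 genes missed the filter, among them Col1a1, the main chain of scar collagen, with 456 normalized counts in MCD anti-ACBP, 1807 in MCD IgG, 102 in chow anti-ACBP and 227 in chow IgG. Col1a1 was named after its values were seen.

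Stellate cells, the collagen-making cells of the liver, were represented by 5 of 11 markers above the filter. In MCD anti-ACBP 0 were at 2-fold (all genes: 2.84%), with a median of 0.81. In MCD IgG 4 were higher (all genes: 4.47%), with a median of 1.48. The 0 depended on the centring: by column totals and with no centring 3 of the 5 were 2-fold higher in MCD anti-ACBP. Lrat, which stores vitamin A, was at 0.92, the matrix protein gene Reln at 0.89, Rgs5 at 0.81 and Vim at 0.55 relative to chow IgG in MCD anti-ACBP. All 11 markers summed to 158 CPM in MCD anti-ACBP, 294 in MCD IgG, 92.8 in chow anti-ACBP and 79.7 in chow IgG. The centred log2 ratio of these sums to chow IgG was 0.69 in MCD anti-ACBP and 1.49 in MCD IgG. None of 12 endothelial markers above the filter, out of 14, was 2-fold apart, and they ranged from 0.03 to 0.54.

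Kupffer cell markers were near the chow level, and genes of lipid-associated macrophages were mixed. The 9 Kupffer cell and macrophage markers above the filter, out of 13, ranged from -0.30 to -0.09 in MCD anti-ACBP, a range in which the sign depends on the scaling, while their median was 0.86 in MCD IgG. Of the 14 genes of lipid-associated macrophages only 5 passed the filter, and 1 was lower than chow IgG: Fabp5, a fatty acid binding protein, with 308 normalized counts in MCD anti-ACBP, 930 in MCD IgG, 792 in chow anti-ACBP and 1549 in chow IgG. The 14 genes summed to 136 CPM in MCD anti-ACBP, 869 in MCD IgG, 97.1 in chow anti-ACBP and 121 in chow IgG. Gpnmb, a glycoprotein of lipid-laden macrophages, had 276 normalized counts in MCD anti-ACBP, 6629 in MCD IgG, 4.78 in chow anti-ACBP and 5.24 in chow IgG. It stood 42.3-fold above chow IgG in MCD anti-ACBP, although it fell by 4.58 ± 0.214 with the antibody on MCD in the authors' deposited table. Mmp12, the macrophage elastase, had 181 in MCD anti-ACBP, 3881 in MCD IgG, 6.83 in chow anti-ACBP and 11.1 in chow IgG, and Trem2, a lipid receptor, had 86.9 in MCD anti-ACBP, 729.8 in MCD IgG, 28.6 in chow anti-ACBP and 44.0 in chow IgG. Mmp12 and Trem2 were named after their values were seen. The sum of the list was thus near chow IgG in MCD anti-ACBP, with Fabp5 lower and Gpnmb and Mmp12 higher. With the filter lowered to 1 CPM 8 of the 14 passed, of which 3 were 2-fold higher and 1 lower. Of all genes at that filter 2.11% were higher and 1.9% lower.

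Monocyte and neutrophil markers summed to 56.9 CPM in MCD anti-ACBP, 291 in MCD IgG, 39.4 in chow anti-ACBP and 35.2 in chow IgG, and only Lyz2 (0.35) of 14 passed the filter. The 4 of 7 MHC class II genes above the filter had a median of 0.37 in MCD anti-ACBP and 1.93 in MCD IgG against chow IgG, with H2-Eb1 at 0.46 and Cd74, the invariant chain, at 0.17. None of 16 T and NK cell and none of 10 B cell markers passed the filter. Of 32 cytokines, chemokines and innate receptors 9 passed, of which the neutrophil chemokine gene Cxcl1 was lower (213 normalized counts in MCD anti-ACBP, 887 in MCD IgG, 457 in chow anti-ACBP and 1003.5 in chow IgG) and the adhesion molecule gene Vcam1 was at 0.78. Of 16 interferon response genes above the filter, out of 26, 1 was lower, Mx2 (-1.07), and Usp18 was at 0.88 (all genes: 1.56% lower).

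**Figure D4:**
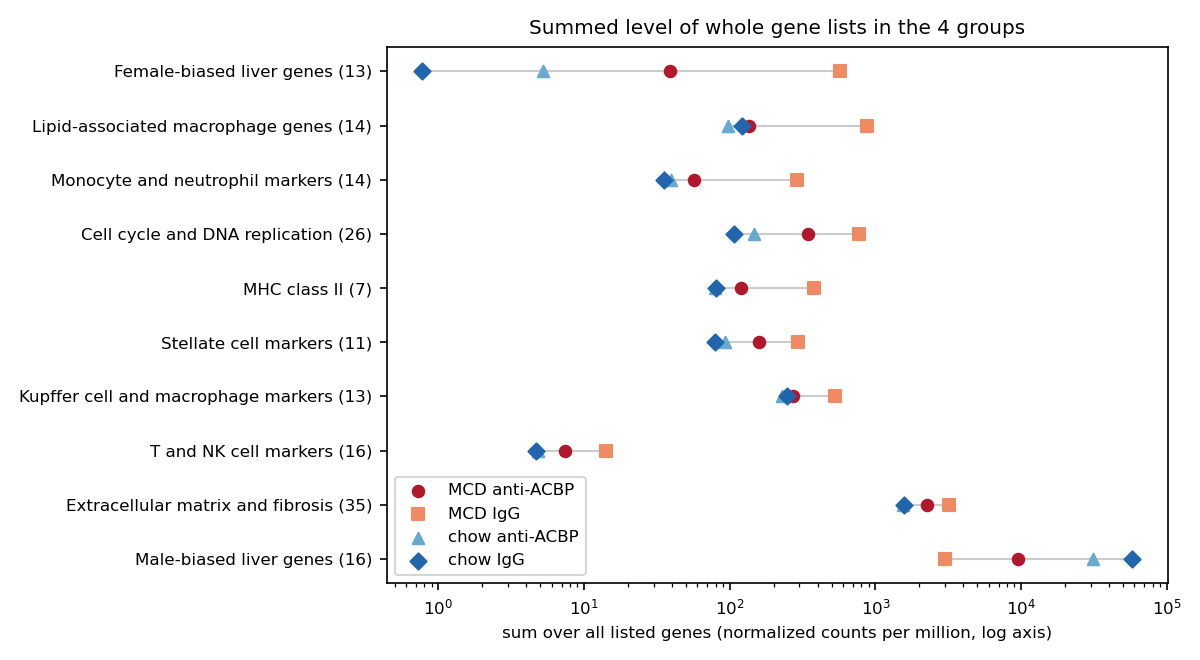
Summed group means of all genes of 10 lists in CPM (log axis), with the number of genes in brackets and 1 symbol for each group. Female-biased genes sum to 38.6 in MCD anti-ACBP and 0.772 in chow IgG, and lipid-associated macrophage genes to 136 and 121.

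Several cell cycle genes were above chow IgG in MCD anti-ACBP livers. Of 26 listed genes 6 passed the filter, with Ccnd1 higher and Tk1 (thymidine kinase) at -0.91. With the filter lowered to 1 CPM 15 passed, of which 7 were 2-fold higher and 0 lower in MCD anti-ACBP than in chow IgG, where 2.11% of 12167 genes were higher and 1.9% lower. The 26 genes summed to 342 CPM in MCD anti-ACBP, 768 in MCD IgG, 148 in chow anti-ACBP and 108 in chow IgG. Ccnd1 weighs heavily on the sums of the MCD groups, with 7479 normalized counts in MCD anti-ACBP and 17377 in MCD IgG. Mki67, the proliferation antigen, had 122 normalized counts in MCD anti-ACBP, 420.3 in MCD IgG, 26.5 in chow anti-ACBP and 43.6 in chow IgG, and Cdc20, an activator of the anaphase-promoting complex, had 134 in MCD anti-ACBP, 428 in MCD IgG, 11.2 in chow anti-ACBP and 12.5 in chow IgG. Both were named after their values were seen. In each of these genes MCD anti-ACBP lay between MCD IgG and both chow groups.

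Immediate early genes went both ways, with 1 of 10 above the filter higher and 2 lower, of 16 listed (all genes: 1.28% higher and 1.56% lower). Myc had 1401 normalized counts in MCD anti-ACBP, 1352 in MCD IgG, 279.6 in chow anti-ACBP and 308 in chow IgG (1.87), a size within 2 times the combined deposited SEs (2.63). Egr1, an early growth response factor, had 375 in MCD anti-ACBP, 1471 in MCD IgG, 748 in chow anti-ACBP and 1647 in chow IgG (-2.45), and Junb was at -1.05, within the guide of 1.0646. With the guide applied 0 genes of this list were higher and 1 lower, and by column totals 3 were higher and 1 lower. Of 9 annexin and S100 genes above the filter, out of 14, Anxa2 was higher (1.09) in MCD anti-ACBP, against 3.86 in MCD IgG. Of 12 p53 targets above the filter, out of 17, Plk2, a stress-induced kinase, was lower at -1.08. Clock genes had 1 of 17 higher, Per2 (1.20), and 2 lower, Nfil3 (-1.57) and Nr1d1 (-1.25), of 19 listed. The labels give no time of day for the samples, and the part of sampling time in the clock result was not tested.

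Autophagy genes, named in the title of the study, were within 0.5 of chow IgG for 31 of 31 genes above the filter, out of 32 listed, in MCD anti-ACBP livers. They ranged from -0.50 for Gabarapl1, an autophagosome membrane protein, to 0.40 for Wipi1, which marks early autophagosomes, where 87.25% of all genes lay within 0.5. The 31 of 31 depended on the centring: column totals move all ratios up by 0.29, which takes Wipi1 past 0.5. The list median was -0.10, against 0.19 by column totals and 0.22 with no centring. In MCD IgG 1 of the 31 was 2-fold lower than chow IgG and 0 higher. Ulk2, an autophagy-starting kinase, had 2225 normalized counts in MCD anti-ACBP, 1273 in MCD IgG, 1969 in chow anti-ACBP and 2397 in chow IgG, and rose with the antibody on MCD by 0.80 ± 0.126 in the authors' deposited table. Transcript levels do not measure autophagic flux. Of 25 lysosome genes above the filter, out of 28, 0 were 2-fold apart in MCD anti-ACBP and 23 lay within 0.5, with Glb1, the β-galactosidase gene, at -0.66. In MCD IgG 5 were higher and 1 lower than chow IgG.

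Stress response genes were mostly less than 2-fold from chow IgG, where 2.84% of all genes were 2-fold apart. Of 18 genes of the unfolded protein and integrated stress response above the filter, out of 25, 0 were 2-fold apart in MCD anti-ACBP, with the chaperone partner gene Sdf2l1 at -0.88 and the death-promoting factor gene Ddit3 at 0.62, and in MCD IgG 3 were higher and 3 lower. Of 20 NRF2 and glutathione genes above the filter, out of 24, Gstm3 was higher (1.48) and Gstp1, a male-biased glutathione transferase of mouse liver, lower (-1.74). Within 0.5 of chow IgG lay 14 of the 18 genes and 15 of the 20, where 87.25% of all genes did. Gstp1 had 34063 normalized counts in MCD anti-ACBP, 22005 in MCD IgG, 85381 in chow anti-ACBP and 91044 in chow IgG. Nuclear respiratory chain genes (22 of 22) and ribosomal protein genes (20 of 20) lay within 0.5 of chow IgG after centring. By column totals their medians were 0.27 and 0.26. The 13 transcripts encoded by mitochondrial DNA had a median of -0.70, with 2 of 13 at least 2-fold lower in MCD anti-ACBP (mt-Nd3 at -1.09 and mt-Nd5 at -1.01). By column totals 0 of 13 were 2-fold lower, with a median of -0.41, and against chow anti-ACBP also 0. All mitochondrially encoded genes, these 13 and the others together, took 5.27% of all normalized counts in MCD anti-ACBP, 5.55% in MCD IgG, 6.61% in chow anti-ACBP and 7.19% in chow IgG. The part of RNA quality in this was not tested.

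A few genes reached 5 CPM in 1 of the 2 groups and stayed under 1 CPM in the overall mean of the other diet's table. Cyp2a4, a female-biased steroid hydroxylase close in sequence to Cyp2a5, had 8904 normalized counts in MCD anti-ACBP, 31311 in MCD IgG, 60.2 in chow anti-ACBP and 8.67 in chow IgG. Reads of so similar a pair may have been shared, so the separate values are uncertain. Cgref1, a calcium-binding growth regulator (319.5 against 26.0), and Dntt, the terminal nucleotidyltransferase of lymphoid cells (296 against 33.9), met the same rule in MCD anti-ACBP, as did Cyp2b9 and Gpnmb. In the reverse direction Mup15 (5.19 against 1863 normalized counts), Ces4a, a carboxylesterase (49.96 against 215), and Capn8, a calpain (24.1 against 211), joined the muscle genes Myh4, Ckm and Acta1. Outside this rule, Dmbt1, a scavenger receptor of mucosal epithelia, had 1.80 normalized counts in MCD anti-ACBP, 892 in MCD IgG, 0.61 in chow anti-ACBP and 1073 in chow IgG. It passed the filter, which uses the overall mean of each diet, only through the 2 IgG groups. Its place among the 142 lower genes therefore follows in part from the filter. It was the lowest of the genes named, with no fold given because 2 of its means were under the floor of 3 normalized counts, and the authors' deposited table gives it SEs of 2.14 on MCD and 3.02 on chow and lists its adjusted p as 1 on both diets.

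The choice of chow group mattered for these results. Against chow anti-ACBP, 140 of 9098 genes were 2-fold apart in MCD anti-ACBP (1.54%), 84 higher (0.923%) and 56 lower (0.616%), and chow anti-ACBP differed 2-fold from chow IgG in 137 genes (1.51%; 0.594% higher and 0.912% lower). The test of the antibody on chow was passed by 15.5% of the 9098 genes in the authors' deposited table (7.38% higher and 8.09% lower), and that on MCD by 37.7%. Male-biased genes were also the list with the lowest median with chow anti-ACBP as the reference, with 9 of 16 lower, 0 higher and a median of -1.07. The comparisons with chow IgG and with chow anti-ACBP share the MCD anti-ACBP libraries.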

How the data were processed

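Liver mRNA of 20 labelled mouse samples was measured by RNA-seq. Per the submitters' processing notes, the authors used HISAT2 2.2.1, HTSeq 0.13.5, DESeq2 (no version given) and the build mm39. They deposited 1 table per diet with 54325 genes each. The deposited signal columns are the authors' group means of normalized counts, with size factors between 0.839 and 1.08 on MCD and between 0.905 and 1.11 on chow, as recovered from single-read steps. The authors' fold change is on a log2 scale and ends at -5 and 5. The deposited p-value columns hold p and adjusted p-values, whose method is not given in the sources used here, and passing a test means an adjusted p under 0.05 there. The labels do not say that each sample is a separate animal, so these p-values may measure technical spread.

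With pandas 2.3.3 and numpy 2.4.6, group means under 3 were set to 3, the log2 ratio of group means was taken and centred on its median over genes at 5 CPM in both tables, and a size of 1 or more was called. Ratios were tested on simulated data. CPM values use column totals. The precision is limited by 4 or 5 libraries per mean. No test was fitted for want of values per library.

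The comparison and the 52 gene lists (861 of 862 genes matched) were chosen with earlier results of these data known. Named genes are the 12 highest and 12 lowest, up to 4 per list with the largest ratio, 6 per direction seen in 1 table, and Dbi, without predicted genes and pseudogenes. Some genes that the rule names are not reported here.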

Additional observations from a re-analysis of the deposited data

How the results depend on the processing

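Of 12 alternatives, 2 were chosen after seeing the data: leaving out Mup genes and chow anti-ACBP as the reference. The count of genes 2-fold apart (258) was 243 without Mup genes, 241 with the SE guide and 258 with a floor of 10. Scaling moved the split: 356 genes by column totals (273 higher, 83 lower), 370 without centring (294 higher, 76 lower) and 330 by totals without the 20 most abundant genes (237 higher, 93 lower). By column totals 106 of 205 named genes moved by more than the root of the summed squared SEs, and without centring 115. The filter gave 488 genes at 1 CPM (257 higher, 231 lower) and 142 at 20 CPM (59 higher, 83 lower). A call at 0.5 gave 1160 genes (571 higher, 589 lower, 216 on lists) and a call at 2 gave 47 (17 higher, 30 lower, 20 on lists), where the main call had 80 on lists. The mean of both chow groups as the reference gave 152 genes (65 higher, 87 lower). Chow anti-ACBP as the reference gave 140 genes (84 higher, 56 lower, 51 on lists), and of 205 named genes 73 moved by less than the root of the summed squared SEs, 124 by more, and 8 of those called changed sign: Acot3 (-0.50), Saa2 (0.26), Cyp8b1 (0.23), Bhmt (0.62), Chka (0.0668), Orm2 (1.09), Lcn2 (1.59) and Nr1d1 (0.32). The cause was not tested. No paired analysis was possible because the files hold group means, and leaving out single libraries was not run for the same reason. Depth per library was not used here, and means of 4 or 5 libraries limit the precision.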
